A study of Homo sapiens with 60 samples.

Results

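The nuclear-encoded subunits of the oxidative phosphorylation machinery were followed through HT29 cells given herbal extracts. They were chosen by symbol: protein-coding genes that start with NDUFA, NDUFB, NDUFC, NDUFS, NDUFV, UQCR, COX4I, COX5, COX6, COX7, COX8, ATP5F1, ATP5M or ATP5P, without the NDUFAF assembly factors, together with SDHA, SDHB, SDHC, SDHD and CYC1. Of the 60675 genes in the table, 90 nuclear protein-coding genes matched, and 81 of these reached a mean of 1 CPM (the counts-per-million scale) over the 60 libraries and were kept. They comprise 38 genes of complex I, 4 of complex II, 10 of complex III, 11 of complex IV and 18 of complex V. The assignment follows the symbols, so NDUFA4, now usually placed in complex IV, stands with complex I, and the supercomplex factor COX7A2L stands with complex IV. The rule used symbols and the mean level, and no difference between groups, but it was set with earlier results of these data known.

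Complexes I to IV pass electrons from NADH and succinate to oxygen along the inner mitochondrial membrane, and complexes I, III and IV pump protons as they do so. Complex V, the ATP synthase, lets the protons flow back and makes ATP. Most subunits are encoded in the nucleus and imported, while a few core subunits of complexes I, III, IV and V are encoded by the mitochondrial genome. Colorectal cancer lines such as HT29 use glycolysis heavily and keep a working respiratory chain beside it.

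HT29 is an established human colorectal adenocarcinoma line, and every group came from it after 24 h of treatment. The vehicle group (3 libraries) received DMSO, at 0.1% by the sample labels and 2% by the series text. Palmul-tang and Sibjeondaebo-tang, both water decoctions of several herbs, and ethanol extracts of Poria, Atractylodes and Ginseng were given at 500, 100 and 20 µg/mL, and the Glycyrrhiza ethanol extract at 350, 70 and 14 µg/mL. These 3 doses are called high, medium and low, and each was measured in 3 libraries. An ethanol extract of Angelica was given at 320, 64 and 12.8 µg/mL with 1 library per dose. Whether a group's libraries are separate cultures is not stated in the labels. The p-values therefore speak for the variation among the libraries of a group alone, and that variation may be technical. The sample codes of the extracts open with a number, called the set number here. It is shared by Palmul-tang and Sibjeondaebo-tang, by Poria and Atractylodes, and by Glycyrrhiza and Ginseng. The vehicle codes open with a letter instead, while all sample titles name the same batch, C. A difference from vehicle and a difference between sets therefore cannot be told apart.

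The libraries held 19.3 M to 29.6 M counts (median 25.1 M, M for mega). The 81 subunits took 0.692% to 0.911% of the counts of a library, and the mitochondrial genome took 6.52% to 11.6%. The 11 epithelial markers summed to 11360 to 13830 CPM. The 9 markers of blood, stromal, endothelial and liver cells summed to 6.85 to 12.7 CPM, nearly all from CD68, PECAM1 and COL1A1, with PTPRC, CD3E, COL1A2, CDH5 and ALB at a median of 0. Among the epithelial markers KRT8 and EPCAM had medians of 6874 and 545 CPM, while the intestinal factors CDX1 and CDX2 were low at 0.905 and 4.59 CPM. On the third principal component of all genes (4.79% of the variance), Poria low replicate 1, Ginseng low replicate 3 and Ginseng high replicate 3 lay apart from the rest, at scores of 31.8, 25.4 and 24.7 against 11.9 for the next library. All 3 stayed in the tests.

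The promoters were searched for letters known to be recognised by the factors that govern nuclear respiratory genes. RefSeq windows from 250 bases before to 50 after the start (GRCh38.p14) were found for 65 of the 81 subunits and set against 15234 protein-coding promoters of the same length, with both strands read. The NRF1 letters GCGCANGCG stood in 22 of 65 subunit promoters (33.8%) and in 11.1% of all promoters. The ETS letters CCGGAAG, read by GABPA, stood in 20 (30.8%) against 14.4% of all, and the YY1 letters AAGATGGC in 11 (16.9%) against 3.98%. The SP1 letters GGGCGG were in 61.5% of subunit promoters and 59.4% of all, the CCAAT box (CCAAT) in 32.3% and 36.7%, the TATA box (TATAAA) in 9.23% and 9.52%, the E box (CACGTG) in 10.8% and 8.90%, and the ERRA letters TCAAGGTCA in 1.54% and 0.236%. Among the 10381 promoters of genes tested here the NRF1, ETS and YY1 letters stood in 14.7%, 19.3% and 5.34%, the SP1 letters in 69.4%, the CCAAT box in 36.8%, the TATA box in 5.91%, the E box in 10.0% and the ERRA letters in 0.154%. Against these the subunits' share was lower for SP1 and higher for the TATA box, each the reverse of the comparison with all promoters. SDHA, the flavoprotein of complex II, had 4 NRF1 matches, counted on both strands, and a match is a description of letters and not a measure of binding. The sequences below show the bases before the start for 4 subunits that the values later in the text concern: NDUFA12 and NDUFB4, accessory subunits of complex I, COX6A1, the non-muscle form of a complex IV subunit, and COX5B, a complex IV subunit encoded in the nucleus. Capitals mark the NRF1 letters in NDUFA12, NDUFB4 and COX6A1 and the ETS letters in COX5B, on either strand, and each sequence is written 5′ to 3′ on the gene's strand.
NDUFA12 (chr12:95003771-95003947, minus strand): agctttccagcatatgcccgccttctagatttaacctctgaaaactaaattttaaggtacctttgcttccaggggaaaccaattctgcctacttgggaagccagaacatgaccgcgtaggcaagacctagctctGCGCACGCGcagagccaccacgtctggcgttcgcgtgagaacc
NDUFB4 (chr3:120596086-120596308, plus strand): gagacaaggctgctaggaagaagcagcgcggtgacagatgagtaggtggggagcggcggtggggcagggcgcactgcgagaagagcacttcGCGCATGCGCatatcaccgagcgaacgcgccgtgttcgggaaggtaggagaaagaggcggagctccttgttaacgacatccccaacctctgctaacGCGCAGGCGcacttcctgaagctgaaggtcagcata
COX6A1 (chr12:120437863-120438089, plus strand): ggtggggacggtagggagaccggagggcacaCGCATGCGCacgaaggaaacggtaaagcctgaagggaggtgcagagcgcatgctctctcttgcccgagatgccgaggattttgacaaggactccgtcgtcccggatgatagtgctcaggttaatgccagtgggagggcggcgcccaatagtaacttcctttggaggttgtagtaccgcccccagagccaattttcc
COX5B (chr2:97645812-97646039, plus strand): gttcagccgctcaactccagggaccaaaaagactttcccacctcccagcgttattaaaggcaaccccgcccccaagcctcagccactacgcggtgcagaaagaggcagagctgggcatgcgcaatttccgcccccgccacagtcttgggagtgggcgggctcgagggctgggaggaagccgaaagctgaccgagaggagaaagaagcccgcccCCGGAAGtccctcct
In the NDUFB4 stretch the letters match 3 times, 2 of them overlapping on opposite strands, and in NDUFA12 and COX6A1 they match 1 time each.

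The subunits' levels per length of transcript ran from 3.50 CPM per kb to 615.5 CPM per kb. The length was the median of a gene's annotated coding transcripts. Which of these HT29 expresses was not measured, so levels and ranks per kb depend on the annotation. On this scale SDHC, at 122.7 CPM and 460 bases, stood above SDHA, at 268.3 CPM and 2107.5 bases. Per kilobase, complex IV had the highest median at 190.1 CPM per kb, followed by complex II at 128, complex III at 116, complex V at 115 and complex I at 62.6. The highest member of each was ATP5MF of the ATP synthase stalk region at 615.5 CPM per kb, COX6B1 of complex IV at 449, NDUFB9 of complex I at 422, SDHC, a membrane anchor of complex II, at 267, and the complex III hinge protein UQCRH at 197. The lowest were NDUFV3 at 6.32, SDHB at 64.9, UQCRHL at 3.50, COX6C at 58.8 and the readthrough gene ATP5MF-PTCD1 at 4.72 CPM per kb. UQCRHL is a near-identical copy of UQCRH and ATP5MF-PTCD1 overlaps ATP5MF, so reads could be split between them and their values are uncertain. The subunits' transcripts were short, with a median length of 753 bases against 2240 for the 16445 genes tested.

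**Figure D1:**
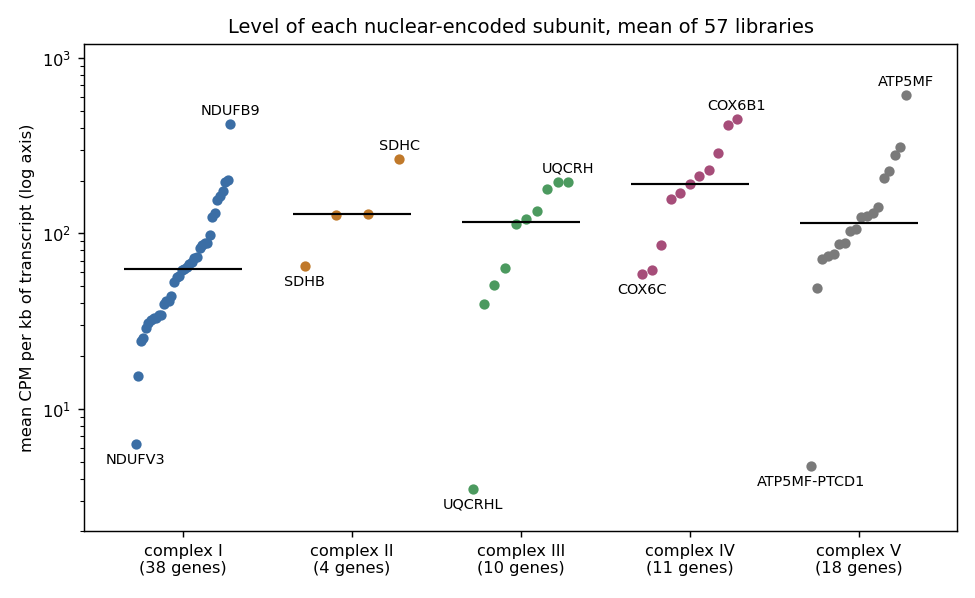
Mean level of each of the 81 nuclear-encoded subunits over 57 libraries, in CPM per kilobase of transcript on a log axis, by complex I to V. Each point is 1 gene and the lines are medians. Complex I has the lowest median (62.6) and complex IV the highest (190.1), and ATP5MF at 615.5 is the highest point.

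Members with a tissue-specific partner were present in the ubiquitous form. Over the 60 libraries COX4I1, a regulatory subunit of cytochrome c oxidase, averaged 150.3 CPM, while its lung-type partner COX4I2 had no count in any of the 60 libraries, which allows a mean of up to 0.00204 CPM. COX6A1 averaged 164 CPM, COX7B 94.5 CPM and COX8A 209.5 CPM. Their partners COX6A2, the heart and muscle form, and COX7B2 had no count, and COX8C had 1 count in all. COX7A2 averaged 80.8 CPM and the muscle form COX7A1 0.152 CPM. The members nearest to the minimum level were UQCRHL at 7.53 CPM and ATP5MF-PTCD1 at 11.7 CPM, and the nearest genes left out were COX6B2, the testis form, at 0.486 CPM and NDUFA4L2, a hypoxia-linked relative of NDUFA4, at 0.413 CPM. All 81 members passed the filter on low counts, so none was lost from the tests.

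Levels of the subunits differed little between groups. The ratio of the highest to the lowest group mean ran from 1.09 (SDHC) to 1.63 (UQCRHL). The median coefficient of variation within groups ran from 2.01% for UQCRC2, a core protein of complex III, to 10.3% for NDUFA1, a small complex I subunit.

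The first comparison set the high against the low dose of each extract, which uses no vehicle library. Tests were edgeR quasi-likelihood tests over all 16445 genes, and a gene was called where its Benjamini-Hochberg adjusted p was below 0.05. Fold changes are given as log2 values. No subunit was called for Palmul-tang, Sibjeondaebo-tang, Poria, Atractylodes or Ginseng, and 5 of 81 fell with Glycyrrhiza. In bulk RNA, fewer cells of one kind and less RNA per cell cannot be told apart.

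For Palmul-tang 0 of 81 subunits were called, where 0.103% of all genes rose and 0.0486% fell, and 0 had an unadjusted p under 0.05. Their median log2 fold change was 0.03 (lowest -0.13, highest 0.11), and it was 0.01 without high replicate 3 and 0.06 without high replicate 2. For Sibjeondaebo-tang 0 were called, where 0.195% of all genes rose and 0.176% fell, and 12 had an unadjusted p under 0.05. Here 69 of 81 subunits lay below 0 with a median of -0.09, but without high replicate 3 the median was 0.01. That library was the lowest of its 3 for 73 of 81 subunits. For Poria 0 were called, against 1.02% and 0.839% of all genes, with a median of 0.04 and 3 members at an unadjusted p under 0.05. Without the 3 libraries that lie apart, the median was 0.01 and 0 were called. For Atractylodes 0 were called, against 1.93% and 2.01%, with a median of -0.02 and 0 at an unadjusted p under 0.05. That median was -0.0026 without low replicate 1 and -0.04 without low replicate 3. For Ginseng 0 were called, against 1.29% and 1.23%, with a median of -0.0024 and 0 at an unadjusted p under 0.05. The Ginseng median was 0.04 without low replicate 2, and without the libraries that lie apart it was -0.0046, with 0 called. In a fit of the 6 Ginseng libraries alone with the replicate number as a block 1 subunit fell. DESeq2 called 0, 1, 1, 0 and 0 subunits in these 5 comparisons.

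The precision of these comparisons was read from intervals for single subunits. They rest on the spread among libraries alone and are not adjusted for the number of subunits. The subunits of a library can shift together, so the intervals are not independent of each other. The 95% interval of a subunit's log2 fold change had a median half-width near 0.17 in each of the 6 extracts. It lay within -0.5 and 0.5 for 81 subunits with Palmul-tang, 78 with Sibjeondaebo-tang, 80 with Poria, 80 with Atractylodes, 78 with Glycyrrhiza and 80 with Ginseng. It lay within -0.25 and 0.25 for 66, 35, 54, 67, 31 and 62 of them.

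**Figure D2:**
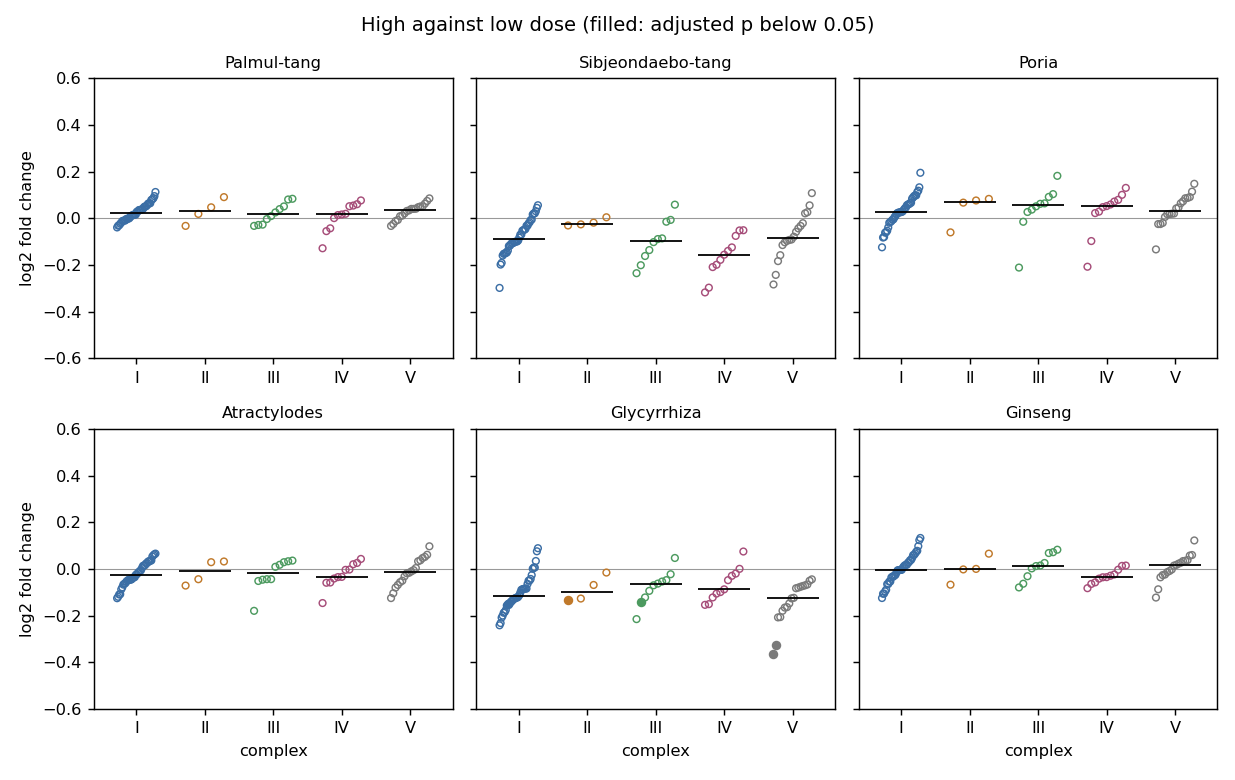
Log2 fold change of each of the 81 subunits between the high and the low dose, by complex and in a panel for each of 6 extracts; each point is 1 gene, filled where it was called, and the lines are medians. With Glycyrrhiza 72 of 81 points lie below 0 (median -0.10) and with Palmul-tang the median is 0.03.

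With Glycyrrhiza the 5 subunits that fell were spread over 4 complexes: NDUFA9, SDHA, UQCRC2, ATP5MC1 and ATP5MF. By GRCh38 annotation NDUFA9 (ENSG00000139180) lies at chr12:4649095-4694317, SDHA (ENSG00000073578) at chr5:218241-256700, UQCRC2 (ENSG00000140740) at chr16:21952660-21983660, ATP5MC1 (ENSG00000159199) at chr17:48892765-48895871 and ATP5MF (ENSG00000241468) at chr7:99448475-99466331, the last on the minus strand. No subunit rose, where 14.0% of all genes rose and 10.9% fell, so the share of members that fell was below that of all genes. The median over the 81 was -0.10, against -0.01 over all genes, and 18 members had an unadjusted p under 0.05.

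In complex I, NDUFA9, an accessory subunit of the matrix arm near the quinone site, had 61.7, 63.2 and 62.7 CPM at the high dose and 68.6, 68.0 and 71.4 CPM at the low dose. It fell by 0.15 (SE 0.05, adjusted p = 0.033), and the 3 vehicle libraries had 61.5, 56.9 and 54.8 CPM. Every high-dose library lay below every low-dose library and above every vehicle library. Among the core subunits NDUFV1, which binds FMN and oxidises NADH, differed by -0.05 (SE 0.04, adjusted p = 0.453), with a 95% interval of -0.14 to 0.04. NDUFS7, an iron-sulphur subunit, differed by -0.13 (SE 0.07) and was not called.

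In complex II, SDHA, which oxidises succinate, had 254, 245 and 249 CPM at the high dose. The medium-dose libraries had 268, 264 and 270.4 CPM and the low-dose ones 277, 278 and 265 CPM. It fell by 0.13 (SE 0.04, adjusted p = 0.00464), and the high-dose libraries did not overlap those of the other doses. The medium-dose libraries overlapped the low-dose ones. SDHB, SDHC and SDHD, the iron-sulphur subunit and the membrane anchors, differed by -0.02, -0.07 and -0.13 and were not called.

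In complex III, UQCRC2 had 154, 159.8 and 154 CPM at the high dose and 172, 173 and 171 CPM at the low dose. It fell by 0.14 (SE 0.04, adjusted p = 0.00218), and the high-dose libraries were also below the vehicle libraries at 169, 171 and 167 CPM. Its partner UQCRC1 differed by -0.02 (SE 0.04). In complex IV no subunit was called, and COX4I1 differed by -0.05 with a 95% interval of -0.17 to 0.07.

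In complex V, ATP5MC1, 1 of 3 genes for the same c-ring protein, had 33.9, 37.2 and 40.0 CPM at the high dose and 47.1, 47.2 and 48.8 CPM at the low dose. It fell by 0.37 (SE 0.10, adjusted p = 0.00557), with vehicle libraries at 42.8, 44.1 and 38.9 CPM. ATP5MF had 138, 167 and 188 CPM at the high dose and 221, 207 and 190.1 CPM at the low dose. It fell by 0.33 (SE 0.11, adjusted p = 0.0295), with high replicate 1 the lowest library and high replicate 3 close to the lowest low-dose library. The catalytic subunits ATP5F1A and ATP5F1B differed by -0.07 and -0.08 and ATP5PO, a stalk subunit, by -0.21, and none was called.

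**Figure D3:**
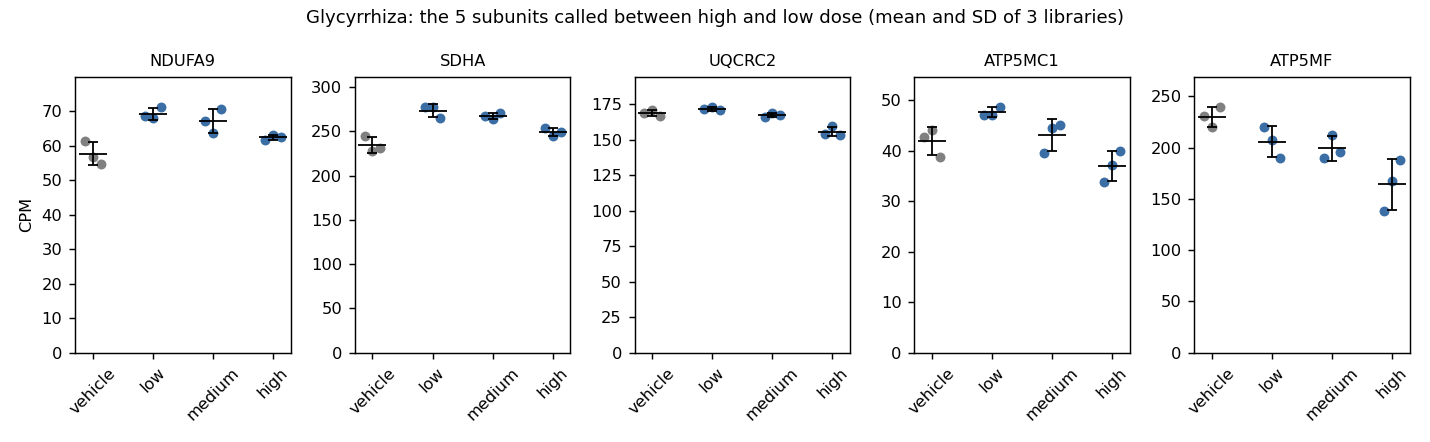
CPM of the 5 subunits that fell between the low and the high dose of Glycyrrhiza, with the vehicle and the medium dose; points are libraries, and bars are the mean and SD of 3. For each gene the 3 high-dose points lie below the 3 low-dose points, as with SDHA at 245 to 254 against 265 to 278 CPM.

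SDHA and UQCRC2 stayed called in each of the 6 fits that left out 1 Glycyrrhiza library, and SDHA was lost without the filter on low counts (-0.13). NDUFA9 was lost in 5 of them, ATP5MF in 4, and ATP5MC1 without high replicate 1. The count of 5 became 2 without high replicate 1, 3 without high replicate 2 and 3 without low replicate 1. It became 23 where only the groups of the comparison were fitted and 18, with 3 of the 5 shared, without the filter on low counts. The log2 differences of ATP5MC2 and ATP5MC3, the other two genes for the same protein, were -0.21 and -0.12 and were not called. The sum of the ATP5MC transcripts was 289 ± 14.3 CPM (SD, n = 3) at the high and 332 ± 3.30 CPM at the low dose, and ATP5MC1 made 12.8% ± 0.449 and 14.4% ± 0.19 of it.

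Whether the dose effect differed among the 6 extracts was tested gene by gene with an F test. No subunit was called by edgeR and 1 by DESeq2, where 12.4% of all genes were called, and 3 of 81 had an unadjusted p under 0.05. The member closest to a call by edgeR was SDHA (adjusted p = 0.0658 over all genes). So the fall of SDHA with Glycyrrhiza was not shown to differ from its dose effect with the other extracts. The count became 1 without each of Atractylodes low replicates 1, 2 and 3, Poria low replicate 2, Glycyrrhiza low replicate 3 and Ginseng high replicate 3.

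Averaged over the 6 extracts, 1 of 81 subunits fell and none rose, where 11.4% of all genes rose and 10.1% fell. It was SDHC, at -0.05 (SE 0.02, adjusted p = 0.0179), and its group means had the smallest ratio of all 81 members. The call was lost after the length and GC correction (-0.04) and without the filter (-0.05). The count became 3 without Sibjeondaebo-tang high replicate 2. It became 2 without each of Sibjeondaebo-tang high replicate 3, Poria high replicates 1 and 3, Poria low replicate 2, Atractylodes low replicate 3, Ginseng low replicate 2 and Glycyrrhiza high replicate 3. The median of the 81 was -0.03 and the 95% interval of 80 members lay within -0.25 and 0.25.

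The next comparison set the high dose of each extract against vehicle. All 6 share the 3 vehicle libraries, so they are not independent of each other. More subunits rose than fell with Palmul-tang, Sibjeondaebo-tang, Poria, Atractylodes and Ginseng. Over all genes, too, more rose than fell with each of the 6 extracts. With Palmul-tang 28 of 81 rose and 2 fell, where 11.7% and 9.95% of all genes did. With Sibjeondaebo-tang 19 rose and 12 fell, against 14.2% and 13.1%, so the falls were near the share of all genes. With Poria 34 rose and 2 fell, against 13.4% and 11.6%. With Atractylodes 21 rose and 5 fell, against 11.9% and 10.6%. With Glycyrrhiza 9 rose and 12 fell, against 18.8% and 15.5%. With Ginseng 11 rose and 7 fell, near the 10.3% and 8.54% of all genes, and 41 members lay above 0 and 40 below. The median log2 differences of the 81 were 0.13, 0.07, 0.14, 0.10, -0.02 and 0.01 in that order, against -0.0089 to -0.0002 over all genes. Without vehicle replicate 3 they were 0.08, 0.02, 0.09, 0.05, -0.07 and -0.03, and without vehicle replicate 1 they were 0.19, 0.13, 0.21, 0.17, 0.04 and 0.08, so the sign for Glycyrrhiza and Ginseng turned with 1 vehicle library. The Sibjeondaebo-tang median was 0.02 without its high replicate 2 and 0.16 without its high replicate 3.

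Leaving out vehicle replicate 3 lowered each of these counts. They became 10, 22, 14, 13, 13 and 8 in the same order, and without vehicle replicate 1 they became 34, 36, 40, 31, 25 and 20. The Palmul-tang count was 17 without its high replicate 1, the Poria count 20 without its high replicate 3 and the Glycyrrhiza count 13 without its high replicate 1. Vehicle replicate 3 was the lowest of the 3 vehicle libraries for 58 of 81 subunits and had the highest share of mitochondrial genome counts (11.6%, against 8.91% and 10.2%). With that share as a covariate, an alternative added after the values were seen, the counts were 6, 13, 10, 10, 15 and 8 and the medians 0.10, 0.03, 0.12, 0.08, -0.03 and -0.0095. The share was 6.58% to 8.74% in the high-dose libraries and did not overlap that of vehicle, so the share and the vehicle group cannot be told apart, and lost calls say little in this fit.

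At low doses the extracts already differed from vehicle. Averaged over the 6 low-dose groups, 29 of 81 subunits rose and 4 fell, where 14.7% and 13.9% of all genes did, with a median of 0.10. The counts became 15 without vehicle replicate 3 and 14 once the mitochondrial share entered as a covariate.

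Among the core subunits of complex I, NDUFV1 had 113, 107 and 101 CPM in vehicle and 128 to 144 CPM in the 18 high-dose libraries, which did not overlap. Its log2 differences were 0.33, 0.34, 0.38, 0.32, 0.29 and 0.32 in the extract order above (SE 0.04, adjusted p from 1.18e-08 to 8.18e-07), and 0.32 for the low-dose mean.

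In complex II, SDHA had 245, 228 and 231 CPM in vehicle and rose by 0.20, 0.22, 0.24, 0.20 and 0.20 with Palmul-tang, Sibjeondaebo-tang, Poria, Atractylodes and Ginseng. With Glycyrrhiza the difference was 0.09 (SE 0.04, adjusted p = 0.0544), which missed the threshold and passed it without vehicle replicate 1 (0.12). In complex III, UQCRC1 had 86.1, 87.1 and 82.2 CPM in vehicle and 95.2 to 111 CPM in the high-dose libraries. It rose by 0.26, 0.29, 0.33, 0.25, 0.26 and 0.24 (SE 0.05, adjusted p from 3.02e-07 to 0.000149). No high-dose library overlapped the vehicle.

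In complex IV, COX4I1 had 131, 129 and 114 CPM in vehicle and 132 to 164 CPM in the high-dose libraries. It rose by 0.34, 0.27, 0.38, 0.31, 0.26 and 0.18, and the Ginseng call was lost without vehicle replicate 3 (0.12), without Ginseng high replicate 1 (0.16) or without Ginseng high replicate 2 (0.19). In complex V, ATP5F1B, the catalytic beta subunit, had 478, 438 and 401 CPM in vehicle and rose by 0.29, 0.28, 0.30, 0.26, 0.15 and 0.24. Glycyrrhiza, at 475 to 492 CPM, was the group that overlapped the vehicle libraries. ATP5MC3 rose by 0.30, 0.37, 0.41, 0.34 and 0.29 with the extracts other than Glycyrrhiza, where it differed by 0.18 and was not called. Without vehicle replicate 3 the calls of ATP5F1B with Glycyrrhiza (0.08) and of ATP5MC3 with Palmul-tang (0.23) and Ginseng (0.23) were lost.

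Members that fell were led by ATP5PF and NDUFA12. ATP5PF, coupling factor 6 of the ATP synthase stalk, had 59.5, 60.4 and 68.1 CPM in vehicle and 33.2 to 50.5 CPM in the high-dose libraries. It fell by 0.37, 0.63, 0.36, 0.45, 0.52 and 0.51 (SE near 0.10), and the Palmul-tang and Poria calls were lost without vehicle replicate 3 (-0.31 and -0.30). NDUFA12, a complex I accessory subunit whose promoter is shown above, had 47.6, 49.9 and 58.7 CPM in vehicle and 30.1 to 44.6 CPM in the high-dose libraries. It fell by 0.35, 0.53, 0.35, 0.38, 0.45 and 0.51 (SE near 0.09), and by 0.40 for the low-dose mean. Its Palmul-tang and Poria calls were lost without vehicle replicate 3 (-0.26 and -0.25). The lowest library for both genes was Sibjeondaebo-tang high replicate 3. NDUFB4 fell by 0.37 with Glycyrrhiza and by 0.32 with Ginseng, COX6A1 fell by 0.42 with Sibjeondaebo-tang and by 0.26 with Ginseng, and COX5B rose by 0.30 with Palmul-tang and by 0.31 with Poria. Single libraries decided several of these calls. The NDUFB4 call was lost without Glycyrrhiza high replicate 1 (-0.27) and, with Ginseng, without vehicle replicate 1, Ginseng high replicate 1 or Ginseng high replicate 2 (-0.29, -0.29 and -0.31). COX6A1 with Ginseng was lost without any 1 of vehicle replicates 1 and 3 and Ginseng high replicates 1, 2 and 3 (-0.21 to -0.29). COX5B was lost without vehicle replicate 2 or 3 in both extracts, without Palmul-tang high replicate 1 or 3, and without Poria high replicate 2 or 3 (0.24 to 0.30).

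**Figure D4:**
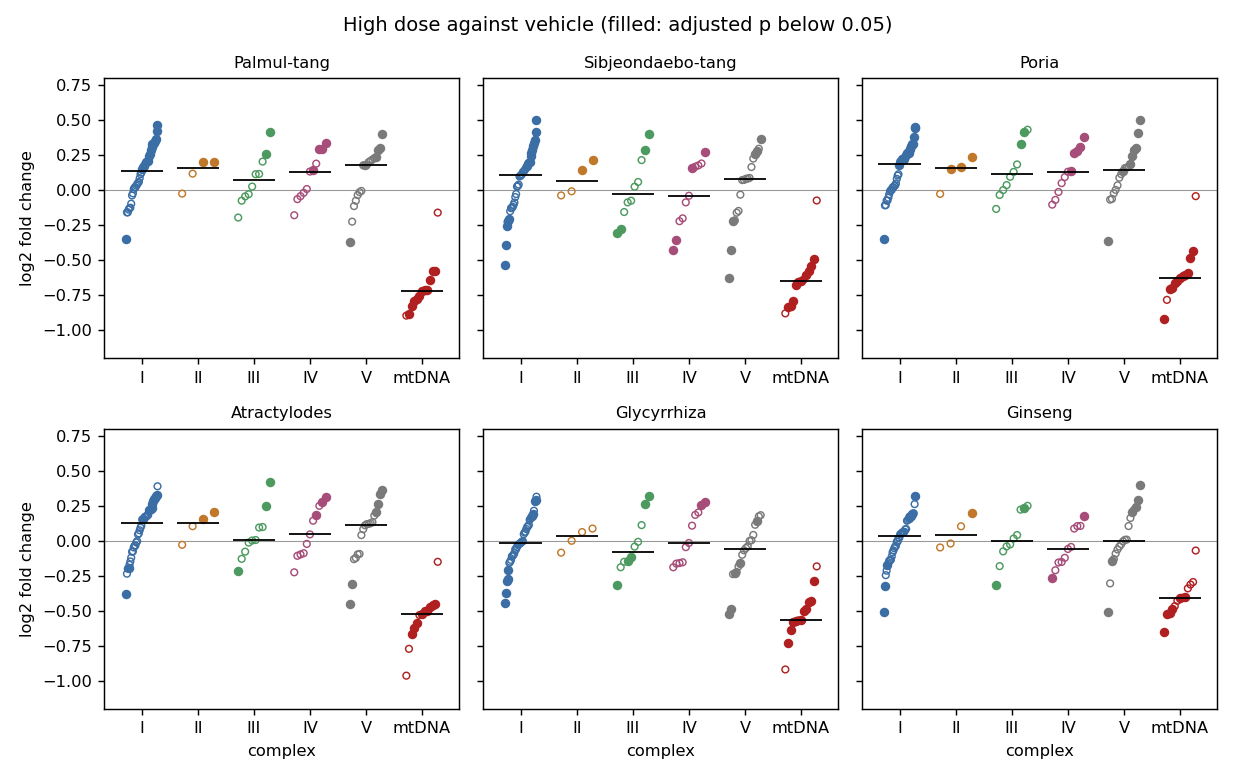
Log2 difference of each of the 81 subunits between the high dose and vehicle, by complex, with the 13 mitochondrially encoded subunits beside them, in a panel for each of 6 extracts that share the 3 vehicle libraries; each point is 1 gene, filled where it was called, and the lines are medians. The mitochondrially encoded medians lie between -0.41 and -0.72, and the median over the 81 nuclear subunits is highest for Poria (0.14) and Palmul-tang (0.13).

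The subunits encoded by the mitochondrial genome were lower at the high doses than in vehicle. Of the 13, 11 fell with Palmul-tang, 10 with Sibjeondaebo-tang, 11 with Poria, 9 with Atractylodes, 10 with Glycyrrhiza and 6 with Ginseng, and none rose. Of all genes 9.95%, 13.1%, 11.6%, 10.6%, 15.5% and 8.54% fell in that order. The medians of the 13 were -0.72, -0.65, -0.62, -0.52, -0.56 and -0.41. Summed, they reached 90010 ± 13480 CPM (SD, n = 3) in vehicle and 55520 to 74800 CPM in the means of the other 18 groups. Their share of the counts was 7.56% to 9.93% in the vehicle libraries and at most 6.81% in the high-dose libraries. At the other doses Poria low replicate 1 (8.12%), Ginseng medium replicate 2 (8.53%) and Ginseng low replicate 3 (7.88%) lay within the vehicle range. The summed nuclear subunits reached 7823 ± 331 CPM in vehicle and 7681 (Glycyrrhiza high) to 8518 CPM (Poria high) in the others. Within the vehicle group the libraries ran in opposite order, with medians of 0.07, 0.00 and -0.08 for the nuclear and -0.21, -0.03 and 0.22 for the mitochondrial subunits relative to the group mean. Markers moved beside them too. Of 11 epithelial markers 3, 4, 2, 2, 1 and 2 fell in the extract order above, while 4 rose with Glycyrrhiza and 0 with the others. Of all genes 8.54% to 15.5% fell in these comparisons, 18.8% rose with Glycyrrhiza and 10.3% to 14.2% rose with the others. CDX2 fell by 0.45, 0.54, 0.60, 0.42 and 0.58 with the extracts other than Glycyrrhiza, and with Glycyrrhiza CEACAM5 rose by 0.81 and KRT20 by 0.74. Of the 3 tested markers of other cell types CD68 fell by 0.72 with Palmul-tang and by 0.85 with Sibjeondaebo-tang, and COL1A1 fell by 0.64 with Palmul-tang and by 0.67 with Atractylodes. Both COL1A1 calls were lost without vehicle replicate 1 (-0.52 and -0.54) or 3 (-0.58 and -0.60) and without high replicate 1 (-0.69 and -0.67) or 2 (-0.43 and -0.61) of their extract. The part of these markers in the subunits' difference from vehicle was not tested.

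Extracts of 1 set were compared directly at the high dose. For Palmul-tang against Sibjeondaebo-tang, both at 500 µg/mL, 0 subunits were called by edgeR and 0 by DESeq2, where 0% of all genes were higher and 0% lower. DESeq2 called 3 of all genes, and 11 subunits had an unadjusted p under 0.05. The median was 0.08, and -0.02 without Sibjeondaebo-tang high replicate 3. For Poria against Atractylodes, both at 500 µg/mL, 0 subunits were called by either tool, where 0.535% of all genes were higher and 0.450% lower, and 2 had an unadjusted p under 0.05. The 95% intervals of 81 and 80 members lay within -0.5 and 0.5 in these 2 comparisons.

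Glycyrrhiza at 350 µg/mL and Ginseng at 500 µg/mL differ in dose as well as extract. Of the 81 subunits, 1 was higher and 4 were lower with Glycyrrhiza, where 13.3% and 9.99% of all genes were. The higher one was COX7A2L, with 71.0, 74.7 and 74.6 CPM against 65.8, 60.7 and 68.4 CPM (0.18, SE 0.05, adjusted p = 0.00987), a call lost without Ginseng high replicate 2 (0.13). SDHA differed by -0.11 (SE 0.04, adjusted p = 0.0193), a call lost without Ginseng high replicate 2 (-0.08) or Glycyrrhiza high replicate 2 (-0.10), and UQCRC2 differed by -0.13 (SE 0.04, adjusted p = 0.0048). ATP5MC1, at 33.9, 37.2 and 40.0 CPM against 44.6, 45.8 and 50.8 CPM, differed by -0.35 (SE 0.10, adjusted p = 0.0108). The fourth was the uncertain ATP5MF-PTCD1 at -0.40 (SE 0.12, adjusted p = 0.0129). The ATP5MC1 call was lost without Ginseng high replicate 3, 1 of the libraries that lie apart (-0.29), and without Glycyrrhiza high replicate 1 (-0.28). The ATP5MF-PTCD1 call was lost without Glycyrrhiza high replicate 1, Glycyrrhiza high replicate 3 or Ginseng high replicate 2 (-0.37, -0.33 and -0.33). The count became 2 without Ginseng high replicate 2 and 3 without Glycyrrhiza high replicate 1.

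Other genes of the pathway were counted from lists of known roles. With Glycyrrhiza, high against low dose, none of 13 mitochondrially encoded subunits was called. The counts below stand beside the 14.0% of all genes that rose and 10.9% that fell. Of 51 assembly factors 1 rose and 9 fell, led by COX18 (-0.40), which inserts a complex IV subunit into the membrane, and COX20 (-0.27), a chaperone of that subunit. Of 20 electron carriers and feeders 1 rose and 5 fell, with COQ3 (-0.40), a coenzyme Q biosynthesis enzyme, and COQ10B (0.36), a coenzyme Q binding protein. Of 17 tricarboxylic acid cycle genes 0 rose and 4 fell, with SUCLG2 (-0.32) and FH, fumarase (-0.18). Of 78 mitochondrial ribosomal proteins 2 rose and 12 fell, with MRPS6 (0.35) and MRPS28 (-0.33). Of 17 glycolysis genes 3 rose and 2 fell, with the enolase ENO2 (0.58) and the phosphofructokinase PFKP (0.36), and of 16 tested biogenesis regulators 1 rose, the coactivator PPARGC1B (0.34). The medians of these 7 lists were 0.10, -0.09, -0.05, -0.07, -0.07, -0.05 and -0.03 in the order named. The epithelial markers moved beside them: 3 of 11 rose and 1 fell, with CEACAM5 at 1.27 and KRT20 at 0.78. Of the 3 tested markers of other cell types CD68 rose by 0.60. Their part in the subunits' values was not tested. The FH call was lost without Glycyrrhiza low replicate 3 (-0.12), and the MRPS28 call without Glycyrrhiza high replicate 1 or 3 or low replicate 2 or 3 (-0.26 to -0.33).

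In the other 5 extracts, 3 of 17 glycolysis genes rose between the doses with Poria, 3 with Atractylodes and 5 with Ginseng. With Palmul-tang and Sibjeondaebo-tang 0 rose. Of all genes 1.02%, 1.93% and 1.29% rose in the first 3 and 0.103% and 0.195% in these 2. Of 20 carriers 1 rose, with Sibjeondaebo-tang, and of 17 tricarboxylic acid cycle genes 1 rose, with Atractylodes. No assembly factor was called. With Atractylodes 1 glycolysis gene fell, the aldolase ALDOC (-0.42), and PPRC1, a PGC-1-related coactivator, rose by 0.21. PFKP rose by 0.27 with Poria and 0.20 with Ginseng, HK2, a hexokinase, by 0.25 with Atractylodes and 0.24 with Ginseng, and GPD2, which feeds electrons to coenzyme Q, by 0.20 with Sibjeondaebo-tang. The GPD2 call was lost without Sibjeondaebo-tang high replicate 3 or low replicate 2 or 3 (0.16 to 0.20), HK2 with Atractylodes without its high replicate 1 or low replicate 3 (0.19 for both), and HK2 with Ginseng without its high replicate 1, 2 or 3 or low replicate 2 or 3 (0.19 to 0.26). Averaged over the 6 extracts, 7 of 17 glycolysis genes rose and 1 fell, where 11.4% and 10.1% of all genes did, with PFKP at 0.21 and HK2 at 0.20. Of 16 biogenesis regulators 5 rose, with PPARGC1B at 0.12 and the mitochondrial helicase TWNK at 0.10, beside the 1 of 81 nuclear subunits that fell. Against vehicle, 9, 10, 12, 10, 8 and 10 of 17 glycolysis genes rose in the extract order above, where 11.7%, 14.2%, 13.4%, 11.9%, 18.8% and 10.3% of all genes did. Without vehicle replicate 3 these counts were 7, 10, 12, 9, 4 and 10. ESRRA, 1 of the 16 biogenesis regulators and a nuclear receptor for respiratory genes, rose by 0.35, 0.47, 0.41, 0.41, 0.41 and 0.35 in that order. All 6 values share the vehicle libraries. The median deviation of the 16 from their mean over 57 libraries was -0.03 in vehicle and -0.04 to 0.07 in the high-dose groups. The part of ESRRA in the subunits' values was not tested.

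Libraries of the same group differed in the subunits' median. In Palmul-tang medium, replicate 3 was the lowest for 70 of 81, while in Atractylodes medium the 3 libraries were the lowest for 28, 29 and 24. The median deviation of the 81 from their group mean lay on the same side of 0 as that of the 86 cytosolic ribosomal proteins in 53 of 57 libraries. It did so in 51 libraries for 78 mitochondrial ribosomal proteins, in 46 for 2447 other genes with a transcript under 1000 bases, in 39 for 17 glycolysis genes and in 30 for the mitochondrially encoded subunits. Sibjeondaebo-tang high replicate 3 had a median of -0.21 for the subunits and -0.20 for the ribosomal proteins, and Palmul-tang medium replicate 3 had -0.15 and -0.17. Sibjeondaebo-tang medium replicate 3 lay the other way, at 0.13 for both.

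**Figure D5:**
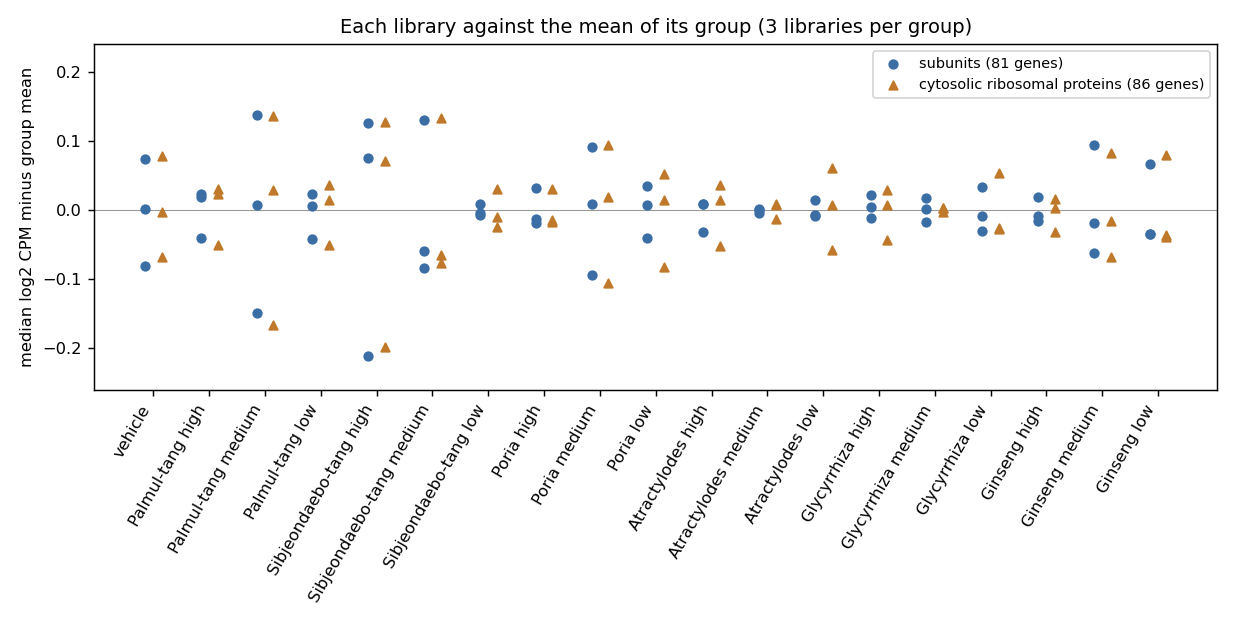
Median log2 CPM of the 81 nuclear-encoded subunits (circles) and of 86 cytosolic ribosomal proteins (triangles) in each of 57 libraries, relative to the mean of its group of 3. The 2 symbols lie on the same side of 0 in 53 libraries, and the lowest pair is Sibjeondaebo-tang high replicate 3 at -0.21 and -0.20.

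The signed change of a subunit between doses went with transcript length in some extracts and not in others. Across the 81 members, which share libraries and are not independent, Spearman's rho of log2 fold change with length was 0.521 for Sibjeondaebo-tang, 0.295 for Glycyrrhiza, 0.314 for Ginseng and 0.453 for the mean of 6 extracts. It was -0.015 for Palmul-tang, -0.103 for Poria and 0.068 for Atractylodes. For Sibjeondaebo-tang the median was -0.03 over the 41 longer and -0.11 over the 40 shorter members, and 2447 other genes under 1000 bases had a median of -0.05. Its median over all 81 was -0.09, and 0.01 without high replicate 3, a fit for which rho was not computed. With GC content rho was 0.363 for Palmul-tang, 0.267 for Ginseng and -0.091 to 0.149 for the other extracts.

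Angelica had 1 library per dose, so its values have no replicate check and no test, and they were not part of the fit. On CPM scaled by TMM factors of the 3 Angelica and 3 vehicle libraries alone, the 81 subunits had a median log2 ratio to the vehicle mean of -0.19 at the high, -0.03 at the medium and -0.04 at the low dose, computed with a pseudocount of 0.5 CPM. Over all genes these medians were -0.01, -0.0013 and -0.0054. At the high dose 51 of 81 subunits lay below the range of the 3 vehicle libraries, where 33.6% of all genes did, 10 above it, where 30.5% did, and 20 within it. Cytosolic ribosomal proteins took 4.81% of the counts of that library, against 5.22% to 5.66% in the vehicle libraries. Its total of 19.3 M counts was the lowest of all libraries. Whether the subunits' values follow from a shift of the whole library was not tested. The lowest ratio was that of NDUFB1, a small membrane subunit of complex I, at 15.7 CPM against 30.9 to 38.2 CPM in vehicle, and UQCRC1 was the highest at 97.4 against 81.5 to 86.3 CPM. NDUFB1 was named after its value was seen. Between the high and the low dose of Angelica the median ratio was -0.13, against -0.0052 over all genes, with 14 of 81 subunits above 0.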

How the data were processed

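RNA of 60 HT29 libraries was read as 100 bp pairs from a strand-specific kit, per the labels' protocols. The authors deposited expected counts per gene, made with FastQC 0.11.9, Trim Galore 0.6.5, STAR 2.7.3a and RSEM 1.3.3 on hg38 (source: the submitters' processing notes). Their gene annotation was not given in the sources used here. RSEM shares reads between near-identical copies by estimated probability. Here the counts were rounded to whole numbers, and 213 columns of other samples were not used. The members and gene lists were chosen with earlier results of these data known.

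One edgeR 4.0.16 model (R 4.3.3) held the 57 libraries of 19 groups (TMM factors 0.956 to 1.03, filterByExpr, quasi-likelihood F test, 38 residual degrees of freedom). Transcript lengths were the median over a gene's coding transcripts in the basic set of GENCODE release 29. CPM are TMM-normalised (for Angelica with factors of its own and the vehicle libraries). The markers and the means over 60 libraries use plain totals instead. Named were up to 3 called members per complex with the largest change in each comparison, isoform sets, core subunits, level extremes, members nearest the minimum level, members called alike in the most extracts and up to 2 called genes per context list. Same-numbered libraries deviated together at every number for Palmul-tang high and low (r = 0.105, 0.175 and 0.193) and Ginseng high and low (0.139, 0.325 and 0.405). The main tests used no pairing, and for these extracts a paired fit of their high and low libraries alone was an alternative. The pairing comes from these correlations, not from the labels. The tests were checked on simulated data in which genes varied independently and with the same spread. That check cannot speak for shifts that the genes of a library share. Alternatives were other scalings, no filter, a length and GC correction, DESeq2 1.42.0, only the compared groups, a replicate block, the mitochondrial share as a covariate and libraries left out. The result for 1 member is not reported here.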

Additional observations from a re-analysis of the deposited data

How the results depend on the processing

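Leaving out 1 library at a time gave 0 called subunits throughout for high against low dose of Palmul-tang, Poria, Atractylodes and Ginseng and for the direct comparisons of Palmul-tang with Sibjeondaebo-tang and Poria with Atractylodes. It gave 0 to 2 for Sibjeondaebo-tang, 2 to 4 for Glycyrrhiza, 1 to 3 for the mean of 6 extracts, 0 to 1 for the difference among extracts and 2 to 5 for Glycyrrhiza against Ginseng. Against vehicle it gave 10 to 34 for Palmul-tang, 22 to 36 for Sibjeondaebo-tang, 14 to 40 for Poria, 13 to 31 for Atractylodes, 13 to 25 for Glycyrrhiza, 8 to 20 for Ginseng and 15 to 35 for the low-dose mean. Without the filter on low counts the count was 11 for Sibjeondaebo-tang, 2 for Poria, 18 for Glycyrrhiza and 6 for the mean of 6 extracts (high against low dose), 36 for Glycyrrhiza and 31 for Ginseng (against vehicle), 7 for Palmul-tang against Sibjeondaebo-tang, 2 for Poria against Atractylodes and 18 for the difference among extracts. After the length and GC correction it was 1 for Sibjeondaebo-tang, 1 for Poria, 2 for the mean of 6 extracts and 3 for the difference among extracts. With the replicate block and that correction together it was 2 for Sibjeondaebo-tang, 1 for Poria, 1 for Atractylodes and 3 for the difference among extracts. The replicate block alone gave 1 for Poria. With that block, the 6 Ginseng libraries alone gave 1 and the 6 Palmul-tang libraries alone gave 0. The block moved no other count by over 1.5 times. In the pairing check the correlation was over 0.1 at every number in 2 of 15 pairs of groups. DESeq2 called 1 for Sibjeondaebo-tang, 1 for Poria and 1 for the difference among extracts. Fitting only the groups of the comparison gave 23 for Glycyrrhiza, 3 for Poria against Atractylodes and 1 for the difference among extracts. With the mitochondrial share as a covariate, chosen after seeing the data, the counts against vehicle were 6 for Palmul-tang, 13 for Sibjeondaebo-tang, 10 for Poria, 10 for Atractylodes, 8 for Ginseng and 14 for the low-dose mean. Leaving out the 3 libraries that lie apart, also chosen after seeing the data, moved no count by over 1.5 times. Membership was 81 genes at a minimum of 0.5 and of 5 CPM. The same covariate, which is itself built mostly from the mitochondrially encoded subunits, turned MT-ND6 with Palmul-tang to 0.13, MT-ND1 with Sibjeondaebo-tang to 0.17, with Poria to 0.24, with Glycyrrhiza to 0.0091 and at the low-dose mean to 0.16, and MT-CYB with Ginseng to 0.026. SDHB with Glycyrrhiza, high against low dose and not called, ran from -0.0548 to 0.0159 over the libraries left out. The median over the members turned from -0.0909 to 0.0069 for Sibjeondaebo-tang, high against low dose, without its high replicate 3. Leaving out a vehicle library turned it from -0.0193 to 0.0384 for Glycyrrhiza and from 0.0081 to -0.0262 for Ginseng, both against vehicle, and Ginseng low replicate 2 turned the Ginseng dose median from -0.0024 to 0.0426. The cause of the other changes was not tested. For high against low dose, the interval of a subunit's log2 fold change had a median half-width near 0.17 in each extract. This median is not a limit for every subunit, as intervals were narrower for some. With Glycyrrhiza, SDHA, UQCRC2 and NDUFA9 were called at -0.13, -0.14 and -0.15. For the mean of 6 extracts the median half-width was 0.07.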
